A study of Mus musculus with 4 samples.

Results

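The genes described here encode protein subunits of the mitochondrial ribosome. They were taken by symbol: every protein-coding gene on mouse chromosomes 1 to 19 of the mm9 annotation whose symbol starts with Mrpl or Mrps and a digit. That gave 77 genes of 21418 protein-coding genes, 47 with a large subunit symbol (Mrpl) and 30 with a small subunit symbol (Mrps). Open chromatin was measured by ATAC-seq, in which the Tn5 transposase cuts accessible DNA in nuclei and dense cutting is called as a peak. The cells were im-scWAT cells, stromal vascular cells of subcutaneous white adipose tissue from 5-week-old mice, immortalised with the SV40 large T antigen and grown under puromycin. WT cells came from Jmjd1a +/+ mice, and HY cells from Jmjd1a HY/HY mice, in which a histidine-to-tyrosine change removes the demethylase activity of JMJD1A, an enzyme that takes methyl groups off lysine 9 of histone H3. Nuclei were taken on day 0 (D0), before differentiation, and on day 8 (D8), after 2 days with indomethacin, dexamethasone, IBMX, rosiglitazone, insulin and T3 and then insulin, T3 and rosiglitazone. Each of the 4 groups was 1 library with no replicate culture, so every difference below is a difference between 2 libraries, in which culture, library and group cannot be told apart, and no p-value can be given.

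Mitochondrial ribosomes translate the few proteins encoded by mitochondrial DNA, all of them subunits of the respiratory chain or of ATP synthase. Their RNA comes from the mitochondrial genome, but all of their proteins are encoded in the nucleus, made in the cytosol and imported. Some of these proteins descend from the bacterial ribosome and others exist only in mitochondria. Brown and beige adipocytes are rich in mitochondria, and the ribosomal protein genes are usually regarded as housekeeping genes with CpG-rich promoters, many of which carry binding sequences of NRF1, of ETS factors such as GABP, of YY1 and of SP factors.

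A gene was counted as having a promoter peak when a peak summit lay in the window that runs from 1000 bp before to 100 bp after any of its annotated starts. The height of a peak was its summit pileup, the number of reads or fragments stacked at the summit, recovered from the deposited fold enrichment and p-value of each peak. Where 4 values follow each other, they are in the order WT D0, WT D8, HY D0, HY D8. The 4 lists held 41228 to 77994 peaks, more on D0 than on D8, and the median pileup over all promoters with a peak in both libraries was 0.792 times as high on D8 as on D0 in WT cells and 0.714 times in HY cells. The genome-wide background rate, which follows sequencing depth, was 0.806 and 0.698 times as high. All ratios of pileup below are therefore on the log2 scale after subtracting the median over all promoters, and a list that is shorter for depth alone also loses weak peaks. The labels were checked on marker genes. Promoter peaks were found at 2 of 6 adipocyte markers on D0 and at 6 of 6 on D8 in either genotype. Of the beige markers, Cidea and Ppargc1a had a promoter peak on D8 in either genotype, Cidea also in HY D0, and Ucp1 and Dio2 had none in any library. Of 5 preadipocyte markers, 5, 1, 3 and 1 had a promoter peak. The immune and muscle markers had none, and of the endothelial markers only Pecam1 had one, in WT D0.

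The promoter DNA of several members is printed here. The stretches lie directly upstream of an annotated start and outside any annotated exon, on the strand of the gene, with capitals for exact matches to the motifs GCGCATGC (NRF1), CCGGAAG (ETS), AAGATGGCG (YY1), GGGCGG (SP) and CCAAT on either strand. Overlapping matches run together. The first is the DNA between the starts of Mrps18b, which had the highest promoter pileup of all members, and Ppp1r10, a phosphatase regulatory gene on the other strand, at chr17:36053335-36053378. The summits of that promoter lay outside this stretch, 408 to 423 bp upstream of the Mrps18b start. Mrpl32, at chr13:14705305-14705454, was chosen for its repeated NRF1 matches, Mrpl22, at chr11:57985013-57985162, for an ETS and an NRF1 match side by side, and Mrpl43, at chr19:45080933-45081047, for a pair of ETS matches between it and Peo1. Mrpl36, at chr13:73468307-73468456, carries a YY1 match. The last stretch, at chr7:85927953-85928004, is all the DNA between the starts of Mrpl46 and Mrps11, printed on the strand of Mrpl46.
Mrps18b: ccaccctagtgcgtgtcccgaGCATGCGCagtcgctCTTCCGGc
Mrpl32: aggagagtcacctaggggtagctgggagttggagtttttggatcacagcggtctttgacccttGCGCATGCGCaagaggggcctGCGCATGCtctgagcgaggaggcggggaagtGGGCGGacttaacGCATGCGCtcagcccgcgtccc
Mrpl22: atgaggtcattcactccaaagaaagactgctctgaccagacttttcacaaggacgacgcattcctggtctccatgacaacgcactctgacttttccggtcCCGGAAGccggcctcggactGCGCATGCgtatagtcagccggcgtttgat
Mrpl43: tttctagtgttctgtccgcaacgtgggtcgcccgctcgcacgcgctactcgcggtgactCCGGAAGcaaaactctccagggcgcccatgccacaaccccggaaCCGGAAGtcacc
Mrpl36: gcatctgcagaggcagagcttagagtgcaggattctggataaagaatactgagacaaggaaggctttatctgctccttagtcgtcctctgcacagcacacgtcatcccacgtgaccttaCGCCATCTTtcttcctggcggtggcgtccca
Mrpl46 and Mrps11: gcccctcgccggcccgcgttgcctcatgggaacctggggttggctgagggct

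Most members were open at their start in all 4 libraries, on both days and in both genotypes. A promoter peak was found for 72, 68, 71 and 70 of the 77 members in the order of libraries given above. As shares these were 93.5% (exact binomial 95% interval 85.5 to 97.9), 88.3% (79.0 to 94.5), 92.2% (83.8 to 97.1) and 90.9% (82.2 to 96.3), where the intervals cover counting error only. Over all protein-coding genes the shares were 54.2%, 50.2%, 55.0% and 51.1%. In all 4 libraries at once, 67 members (87.0%) had a promoter peak, against 45.4% of all genes. By subunit these were 40 of 47 large and 27 of 30 small subunit members, and by descent 41 of the 47 with a bacterial homologue and 26 of the 30 without.

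**Figure D1:**
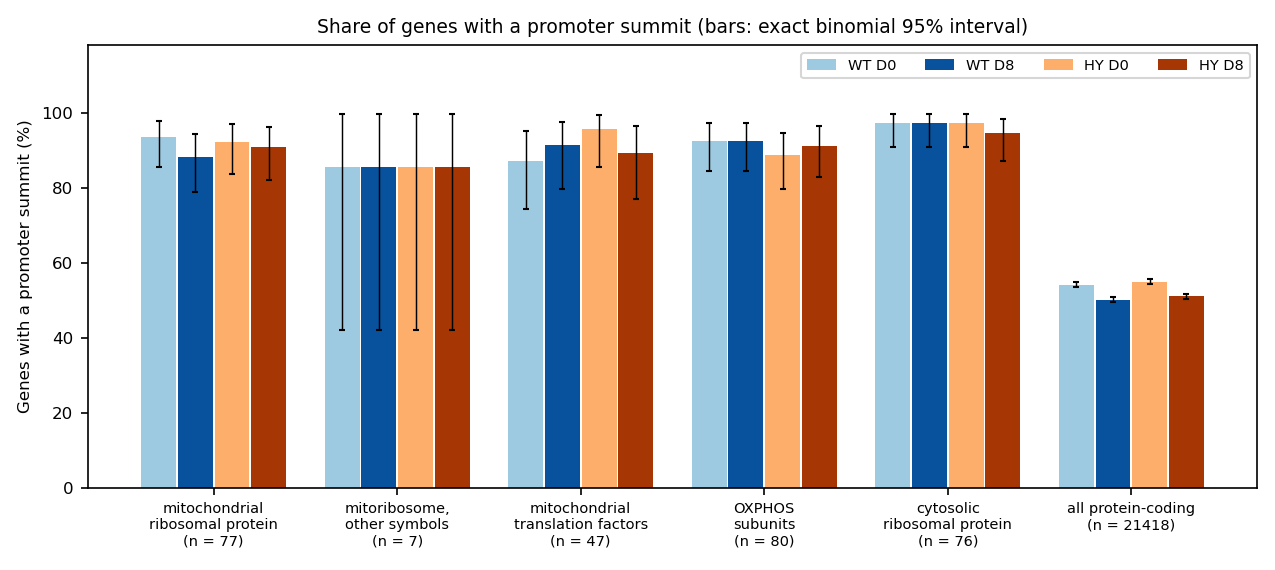
Share of genes with a promoter summit, in percent, by gene group and library; bars start at 0 and the lines are exact binomial 95% intervals. The mitochondrial ribosomal protein genes sit between 88.3% and 93.5%, near the other ribosome and respiratory chain groups and above the 50.2% to 55.0% of all protein-coding genes.

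Other gene groups of the same machinery had similar shares. Of 7 mitoribosome proteins whose symbols follow another scheme, among them Dap3 and Ict1, 6 had a promoter peak in each of the 4 libraries. Of 47 mitochondrial translation and assembly factor entries, such as the elongation factor Tufm and the aminoacyl-tRNA synthetases of mitochondria, 39 (83.0%) had one in all 4. The value was 71 of 80 (88.8%) for nuclear subunits of oxidative phosphorylation and 72 of 76 (94.7%) for the proteins of the cytosolic ribosome. Nsun4 and Ndufb8 each have 2 gene entries in the annotation and are counted once for each entry.

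The 10 members that lacked a promoter peak somewhere were, with 1 exception, open just past the edge of the window. Mrpl47, next to the complex I gene Ndufb5, had a strong peak in all 4 libraries (pileups of 57, 48, 62 and 53) whose summit lay 247 to 272 bp downstream of the start. Mrps28 had pileups of 55, 54, 66 and 46 with summits 358 to 409 bp downstream. Mrpl23, whose product sits near the exit of the ribosomal tunnel, had weaker peaks of 24, 16, 28 and 18, with nearest summits 184 to 498 bp downstream. These 3 genes therefore counted as closed only through the position of the summit. Mrps36-ps1, whose symbol marks it as a pseudogene although the annotation lists it as protein-coding, had no peak within 10 kb of its start in any library.

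The 6 members with a promoter peak in some libraries only showed the same kind of shift. The WT D8 library lacked a promoter summit at Mrpl4, Mrpl33, Mrpl35 and Mrps34, and there the nearest summits lay 190, 185, 268 and 237 bp downstream, with pileups of 11, 15, 13 and 13. The peak still covered an annotated start at Mrpl33, Mrpl35 and Mrps34, and at Mrpl4 it began 31 bp past the start. Mrpl4, whose product lines the exit tunnel, also had its HY summits past the window, at 153 bp on D0 (pileup 32) and 160 bp on D8 (12), beside 26 inside the window in WT D0. Mrpl54 had its summit 5 bp upstream of the start in HY D0 (pileup 48) but 309, 301 and 306 bp downstream in WT D0, WT D8 and HY D8 (48, 43 and 35). Mrpl36 had summits 252 bp downstream in both HY libraries, with pileups of 26 and 15, and inside the window in WT (18 and 17).

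When any part of a peak inside the window was accepted, a rule added after seeing these values, 76 of 77 members were open in all 4 libraries and none differed between libraries. For all protein-coding genes the same rule gave 10773 of 21418 (50.3%). The gains and losses by summit were as follows. From D0 to D8, 0 members gained and 4 of 72 lost a promoter summit in WT cells, where over all genes 4.47% gained and 11.4% lost one. In HY cells 0 gained and 1 of 71 lost one (4.37% and 11.2% over all genes). Between genotypes, 1 was gained and 2 lost in HY on D0 (5.56% and 4.04%), and 3 were gained and 1 lost on D8 (5.97% and 4.31%). None of these gains and losses remained under the overlap rule.

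**Figure D2:**
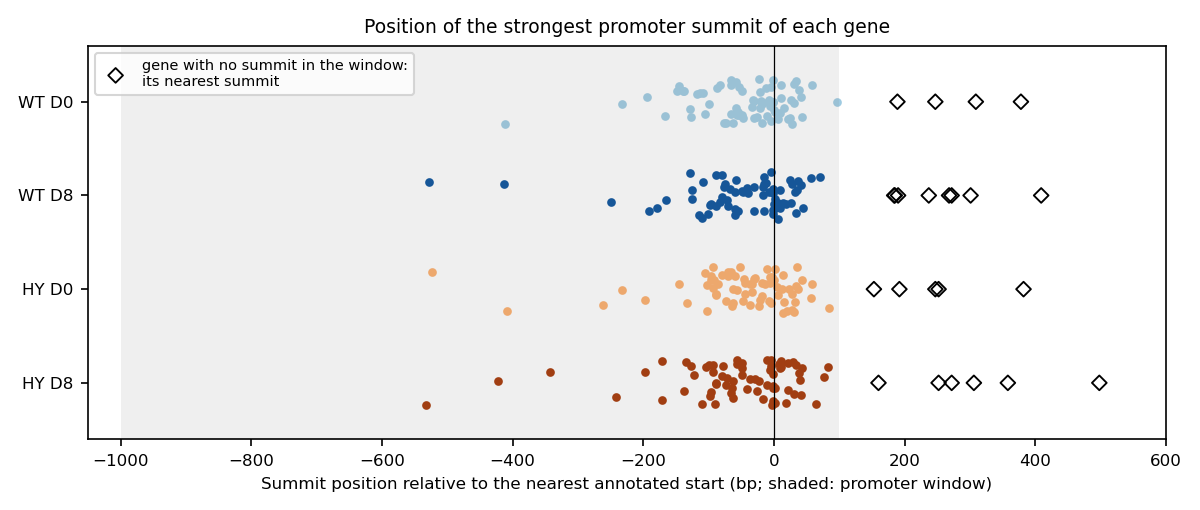
Position of the strongest promoter summit of each gene relative to its nearest start, in bp, for the 4 libraries; the shaded band is the promoter window and open diamonds are the nearest summits of genes with none inside it. The diamonds lie 153 to 498 bp downstream, and most dots lie within 200 bp upstream of the start.

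Inside the window the summits sat close to the start. The median position in the 4 libraries was -28.0, -35.0, -34.0 and -39.0 bp, upstream of the start. Between 200 bp before and 100 bp after the start lay 97.2%, 95.6%, 94.4% and 94.3% of the members' summits, beside 82.8%, 85.3%, 82.5% and 84.5% over all genes. Mrps18b was an exception, with summits 408 to 423 bp upstream, which is beyond the start of Ppp1r10 and may be counted to either gene.

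In height the members lay near the middle of all promoters. Their median promoter pileup was 32.5, 24.5, 38.0 and 25.5, while the medians over all promoters were 35.0, 28.0, 41.0 and 29.0. The spread among members was wide, with ranges of 9 to 79, 9 to 72, 14 to 88 and 10 to 70. The cytosolic ribosomal protein genes had medians of 40.0, 34.0, 45.5 and 31.5. In bulk nuclei, opening in fewer cells and weaker opening in each cell cannot be told apart. Members without a bacterial homologue had higher medians (36.0, 31.0, 44.0 and 36.0) than those with one (30, 23, 37 and 24), and the ranges of both sets overlapped.

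The strongest promoters were high in every library. Mrps18b, a small subunit protein of bacterial descent, had pileups of 79, 72, 88 and 70. Mrpl41, a mitochondria-specific protein of the large subunit, had 70, 65, 76 and 63. Mrpl18 had 69, 62, 67 and 62, and it shares its promoter with Tcp1, a subunit of the cytosolic chaperonin. Mrpl34 had 56, 60, 64 and 56, Mrpl17 had 58, 59, 59 and 53, and Mrps26 had 58, 47, 70 and 51. All 6 stayed at 47 or above throughout.

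The weakest promoters were low in every library too. Mrpl3, which encodes a core protein of the large subunit near the catalytic centre, had pileups of 9, 9, 14 and 12. Mrps18a had 16, 11, 20 and 11; its product, despite its symbol, lies in the large subunit of the mammalian mitoribosome. Mrpl52 had 18, 12, 15 and 13, of which the 15 in HY D0 is a separate peak 524 bp upstream, since the HY D0 peak over the start, with a pileup of 24, had its summit 256 bp downstream. Mrps22 had 21, 10, 24 and 10, Mrpl19 had 16, 15, 16 and 16, and Mrps5 had 22, 17, 22 and 10. The highest of these values, 24, is below the lowest value of each of the 6 strongest members. Both sets were picked as the ends of a ranking by mean pileup over these same libraries. Such a gap, and values high or low in every library, follow largely from that choice.

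**Figure D3:**
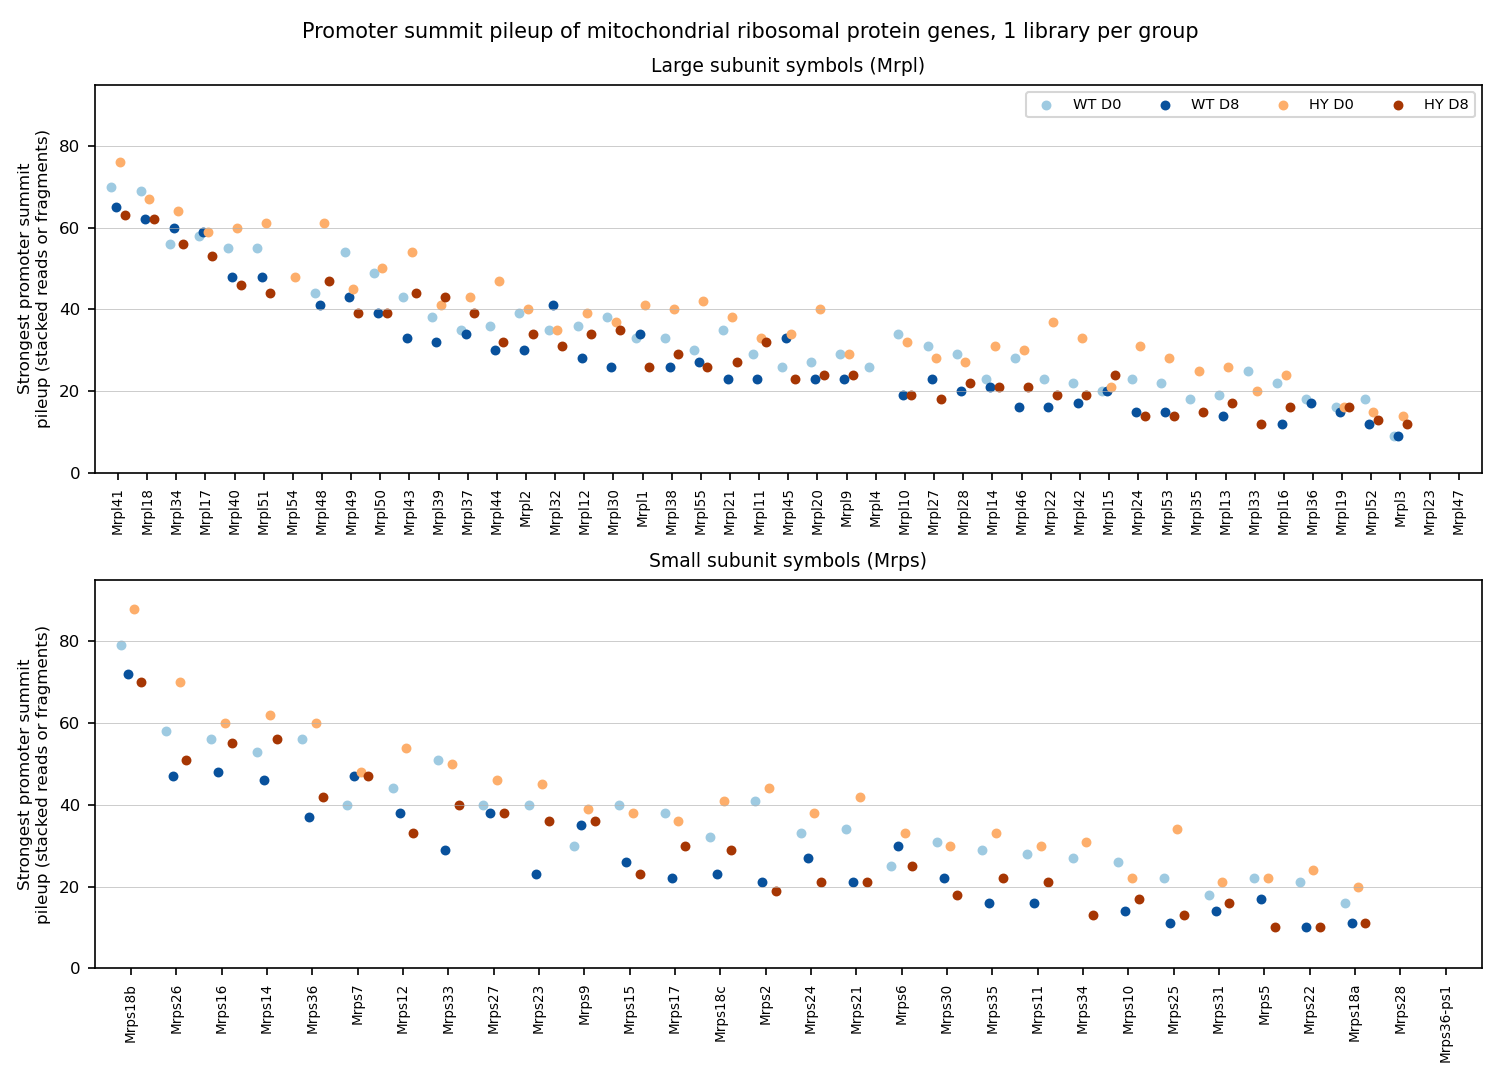
Strongest promoter summit pileup (stacked reads or fragments, linear axis from 0) of each gene in the 4 libraries, ordered by mean height within the large and small subunit symbols; a gene with no summit in the window has no dot. Mrps18b, with 70 to 88, is at the top and Mrpl3, with 9 to 14, is the lowest of those open in all 4.

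Some members have products with known roles beyond peptide synthesis, or in the other subunit than their symbol says. Mrpl12, which also binds the mitochondrial RNA polymerase, had pileups of 36, 28, 39 and 34. Mrpl44, a protein with a ribonuclease III fold, had 36, 30, 47 and 32. Mrps36, later recognised as a part of the 2-oxoglutarate dehydrogenase complex, had 56, 37, 60 and 42. Mrps30, a large subunit protein in spite of its symbol, had 31, 22, 30 and 18. Mrpl45, which holds the ribosome at the inner membrane, had 26, 33, 34 and 23 and is the only one of these 5 whose WT D8 value was above WT D0.

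From D0 to D8 the members as a group moved with all other promoters. After centring, the median log2 ratio of D8 over D0 was 0.00 in WT cells (68 members, interval of the median -0.10 to 0.11) and 0.03 in HY cells (70 members, -0.08 to 0.16). In WT cells 2 members were at least 1.5-fold higher and 3 at least 1.5-fold lower, which is 2.94% and 4.41%, beside 5.55% and 11.4% of all promoters. In HY cells 1 was higher and 6 lower, 1.43% and 8.57%, beside 4.66% and 13.1%. In each of the 4 cases the share of members was below that of all promoters. Among promoters with a pileup of at least 30 in either library, the shares beyond 1.5-fold in either direction were 6.98% of members and 13.1% of all in WT, and 7.55% and 13.9% in HY.

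Taking the strongest promoter summit of each library, no member had a ratio beyond its counting error. Over the 4 comparisons there were 275 ratios of members, and 0 of them had an exact binomial 95% interval that left out 0. Over all promoters the share was 6.81% for the day in WT, 8.33% for the day in HY, 0.874% for the genotype on D0 and 0.556% for the genotype on D8. Pileups of this size make the intervals wide, so a smaller change of a single member was not detectable at this depth.

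The 3 members that were at least 1.5-fold lower on D8 in both genotypes all carry small subunit symbols, and 0 were higher in both. Over all promoters, 6.26% were lower in both and 2.11% were higher in both, against 3 of 67 members, or 4.48%. Mrps2, a protein of bacterial descent, went from a pileup of 41 to 21 in WT and from 44 to 19 in HY, a centred log2 ratio of -0.63 (-1.46 to 0.16) and -0.73 (-1.58 to 0.08). Mrps22, which exists only in mitochondria and is known from inherited disease of mitochondrial translation, went from 21 to 10 and from 24 to 10, ratios of -0.73 (-1.98 to 0.42) and -0.78 (-2.01 to 0.34). Mrps25, another mitochondria-specific protein, went from 22 to 11 and from 34 to 13, ratios of -0.66 (-1.85 to 0.44) and -0.90 (-1.95 to 0.06). These 3 were picked for being lower on D8 in both genotypes, so that agreement adds nothing, and every interval reached 0.

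Their upstream DNA is shown because these were the only members beyond 1.5-fold in both genotypes. Mrps2 is at chr2:28323436-28323585, Mrps22 at chr9:98502099-98502248 and Mrps25 at chr6:92134028-92134177, with capitals as above. Mrps22 holds an SP and an ETS match, Mrps25 holds a CCAAT match and Mrps2 holds none of the 5 motifs in this stretch, so no motif was common to them.
Mrps2: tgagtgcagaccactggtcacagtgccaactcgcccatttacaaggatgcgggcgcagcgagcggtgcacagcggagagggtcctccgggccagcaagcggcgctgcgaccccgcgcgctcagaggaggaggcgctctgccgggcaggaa
Mrps22: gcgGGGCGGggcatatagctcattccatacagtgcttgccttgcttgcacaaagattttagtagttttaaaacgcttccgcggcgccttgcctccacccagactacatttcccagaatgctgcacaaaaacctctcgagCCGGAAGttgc
Mrps25: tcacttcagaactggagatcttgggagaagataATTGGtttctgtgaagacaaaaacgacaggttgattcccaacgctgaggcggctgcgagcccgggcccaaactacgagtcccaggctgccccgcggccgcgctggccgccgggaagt

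Below these came Mrps21, with ratios of -0.36 in WT and -0.51 in HY, Mrpl24 (-0.28 and -0.66) and Mrpl10 (-0.50 and -0.27). The members with a higher centred ratio in both genotypes stayed under 1.5-fold in at least 1 of them. Mrps7, a head domain protein of the small subunit, had pileups of 40 and 47 in WT and 48 and 47 in HY, centred ratios of 0.57 and 0.46. Mrps9 had 0.56 and 0.37, Mrpl15 had 0.34 and 0.68, Mrpl17 had 0.36 and 0.33, Mrpl32 had 0.57 and 0.31, and Mrpl37 had 0.30 and 0.34. In WT cells the pileup of each of these except Mrpl37 was at or above its D0 value on D8, and in HY cells that of Mrpl15 was, while the median promoter was lower on D8.

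**Figure D4:**
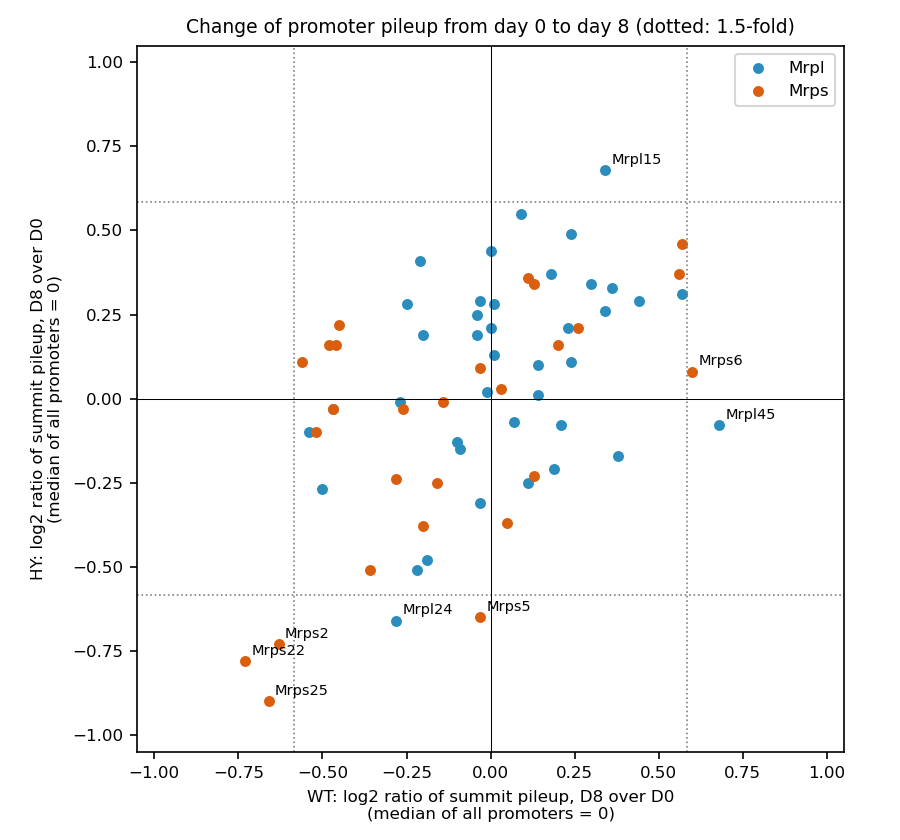
Centred log2 ratio of promoter summit pileup, D8 over D0, in WT (x axis) against HY (y axis), 1 point per gene with a promoter summit in all 4 libraries; dotted lines mark 1.5-fold and genes beyond it in either genotype are named. Mrps2, Mrps22 and Mrps25 are the only points beyond the lines in both genotypes.

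For 3 of the 67 members open in all 4 libraries (Mrps6, Mrps10 and Mrpl52), the strongest promoter summits did not all lie in 1 site. The WT ratio of 0.60 for Mrps6 came about this way. At the 5′ start of Mrps6 the pileups were 25, 25, 33 and 19. In the promoter window of an annotated start further downstream the gene had no peak on D0 and 30 on D8 in WT cells, and 7 and 25 in HY cells. The D8 summits lay 528 bp (WT) and 532 bp (HY) upstream of that start, and the D8 peaks did not reach it. This upstream site was therefore higher on D8 in both genotypes. In HY cells the centred log2 ratio of this site alone, computed after its pileups were seen, was 2.32 (exact binomial 95% interval 1.07 to 3.78). It was picked for its high D8 pileup, so the interval is no test of it, and no share over other such sites was computed. Mrpl33 had 15, none, 20 and 12 in the promoter window of its 5′ start. A peak over a group of its starts further downstream had 25, 15, 38 and 23, with the summit inside a promoter window in WT D0 only. Mrps10 had 26, 14, 19 and 17 at the main start and 13, 10, 22 and 12 at another. An annotated start of Mrpl14 about 9 kb downstream had peaks on D0 only, of 17 in WT and 24 in HY, while its main start had 23, 21, 31 and 21.

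Between genotypes the medians were also near 0. The centred median of HY over WT was -0.01 on D0 (70 members, -0.08 to 0.03) and 0.04 on D8 (67 members, -0.05 to 0.13). On D0, 0 members were 1.5-fold higher and 0 lower, beside 3.20% and 2.47% of all promoters. On D8, 1 was higher and 1 lower, beside 3.30% and 2.83%. The higher one was Mrps23, with 23 in WT and 36 in HY, a ratio of 0.60 (-0.20 to 1.42). The lower one was Mrps5, with 17 and 10, a ratio of -0.82 (-2.11 to 0.39). The comparisons of genotype and of day share libraries and are not independent of each other.

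Some members differed in the same direction on both days, and 0 of them by 1.5-fold on both. Mrpl3 was higher in HY on D0 and D8 (0.44 and 0.36), as were Mrpl13 (0.26 and 0.23), Mrpl22 (0.49 and 0.20) and Mrps25 (0.44 and 0.19). Mrpl27 was lower in HY (-0.34 and -0.40), as were Mrps30 (-0.24 and -0.34), Mrps15 (-0.27 and -0.23) and Mrpl32 (-0.19 and -0.45). Of the 67 members open in all 4 libraries, 15 were above 0 on both days and 15 below 0 on both days, 22.4% each, beside 25.9% and 26.1% of all promoters.

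The annotation showed how these promoters are built. A start of another protein-coding gene on the opposite strand lay within the same promoter window at 27 members (35.1%), against 9.83% of all protein-coding genes, 28.8% of oxidative phosphorylation genes and 14.5% of cytosolic ribosomal protein genes. The median distance between such starts was 83.0 bp. A promoter peak there can be counted to either gene. Mrpl46 and Mrps11 are neighbours in this way, 53 bp apart, and share 1 peak with pileups of 28, 16, 30 and 21, so they are 1 measurement. Several partners also serve mitochondria: Ndufb5 beside Mrpl47, the mitochondrial seryl-tRNA synthetase gene Sars2 beside Mrps12 (171 bp), the mitochondrial DNA helicase gene Peo1 beside Mrpl43 (116 bp) and Ptcd2 beside Mrps27 (108 bp). Others do not, such as the histone chaperone gene Hira beside Mrpl40 (498 bp), the proteasome gene Psma2 beside Mrpl32 (217 bp), and Fau, the gene of a cytosolic ribosomal protein, beside Mrpl49 (135 bp).

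In sequence, the 250 bp before and 50 bp after the start were read for the 73 members with a promoter peak in any library, beside 12725 promoters of all protein-coding genes. The ETS motif was present in 27 of 73 (37.0%, 26.0 to 49.1) against 18.1% of all. The YY1 motif was present in 9 (12.3%, 5.80 to 22.1) against 3.19%, and the NRF1 motif in 8 (11.0%, 4.85 to 20.5) against 5.22%. Within 100 bp of the summit instead, the shares were 41.1% against 15.2% for ETS, 11.0% against 2.36% for YY1, and 6.85% (5 members, 2.26 to 15.3) against 3.81% for NRF1. In like groups the shares at the start were, for ETS, 41.9% of cytosolic ribosomal protein genes and 25.7% of oxidative phosphorylation genes, for YY1, 8.11% and 9.46%, and for NRF1, 5.41% and 13.5%. The SP motif was present in 39 (53.4%, 41.4 to 65.2) against 66.6%. CCAAT was found in 38.4% against 38.5%, the E-box CACGTG in 6.85% against 9.83% and TATAAA in 8.22% against 6.09%. The oestrogen-related receptor motif TCAAGGTCA was found in 0 of 73 and in 0.236% of all. Of the 73 promoters 17 held none of the NRF1, ETS, YY1 and SP motifs. The median GC content was 58.3% (42.3% to 78.0%) against 62.0% for all. A match is a string of letters and was not tested for binding.

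Outside the genes' own promoters, peaks within 10 kb made 122 pairs of a gene and a site at 59 members. Of these, 38 were promoters of other genes and 84 lay at no annotated promoter. In all 4 libraries 44 (36.1%) were open, against 25.7% of 35799 pairs for all genes. By class, 27 of the 38 at promoters of other genes were open in all 4 (71.1%, beside 63.3% over all genes), and 17 of the 84 elsewhere (20.2%, beside 18.7%). Promoters of other genes made up 38 of the 122 pairs here and 5576 of the 35799 pairs over all genes. Mrpl45 and Mrps18a had the most sites, 6 each, followed by Mrpl33, Mrpl52, Mrpl53 and Mrps28 with 5. Sites were counted around every annotated start, so a gene with starts far apart, such as Mrpl33, was searched over more DNA.

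From D0 to D8 sites outside promoters were lost more often than gained in the full lists, which are longer on D0. This held near these genes as near all genes. In WT cells 7 of 96 were gained and 41 lost, 7.29% and 42.7%, beside 14.4% and 47.9% over all genes. In HY cells 13 of 111 were gained and 43 lost, 11.7% and 38.7%, beside 15.1% and 46.5%. In both genotypes at once 4 were gained and 23 lost, beside 6.92% and 22.2% for all genes. With the 4 lists shortened to equal length by their strongest peaks, the order was reversed and gains outnumbered losses. Then 8 of 77 were gained and 4 lost in both genotypes, 10.4% and 5.19%, beside 14.5% and 11.2% over all genes. The excess of losses therefore depends on list length. HY over WT, 21 of 110 were gained and 12 lost on D0 (21.3% and 12.1% over all genes), and 17 of 72 were gained and 4 lost on D8 (23.8% and 11.9%).

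The 4 sites gained on D8 in both genotypes were weak to moderate. The highest was the promoter of Tm7sf2, a sterol biosynthesis gene 9457 bp upstream of Mrpl49, with 27 in WT and 32 in HY. An intron of Mrps6 held a site 4029 bp upstream of its downstream start with 14 and 14. This site and the peak in the promoter window of that start were thus both higher on D8. A site in an intron of the condensin gene Ncapd2, 9202 bp upstream of Mrpl51, had 17 and 12. An intergenic site had 11 and 10, and it lay 7054 bp past the downstream start of Mrpl14 described above, not its main start. By the rule for a gained site, none of the 4 had a peak on D0.

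Several sites lost on D8 in both genotypes were well above the weakest peaks of the lists. A site in Hira, 1198 bp upstream of Mrpl40, had 28 in WT D0 and 41 in HY D0. Upstream of Mrpl45 lies a group of 5 intergenic sites: those at 6610 and 4180 bp were lost (29 and 25, 26 and 29), while those at 6109, 5397 and 4543 bp kept a peak in every library, the highest with 62, 46, 72 and 48. Near Mrpl10 the promoter of Osbpl7 had 25 and 32. Near Mrpl52 a site in an intron of the matrix metalloproteinase gene Mmp14 had 25 and 26, near Mrpl34 a site in Abhd8 had 21 and 25, and near Mrpl38 the promoter of Trim47 had 19 and 23. An intergenic site 8086 bp upstream of Mrps18a stayed in all lists but had 43 and 39 on D0 and 5 and 9 on D8.

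**Figure D5:**
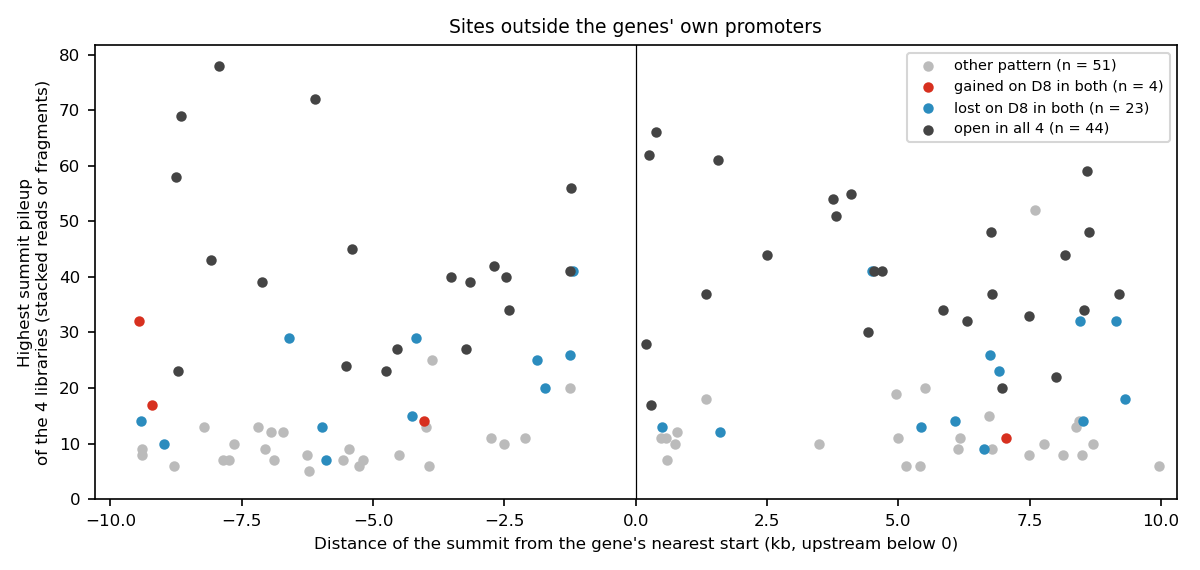
Highest summit pileup of the 4 libraries (linear axis from 0) for each site outside the gene's own promoters, against its distance from the gene's nearest start in kb. The 44 sites open in all 4 libraries reach 78, the 23 lost on D8 in both genotypes reach 41 and the 4 gained in both reach 32.

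Sites open in only 1 genotype on both days were few. In HY there were 2, in Mmp14 near Mrpl52 (20 on D0 and 9 on D8) and in Rsph9 near Mrps18a (15 and 9), beside 0.986% over all genes. In WT there were 0, beside 0.363%.

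Short motifs at these sites, a search added after the sites had been listed, were read 100 bp to either side of the strongest summit. The AP-1 motif TGANTCA was in 7 of the 23 lost sites (30.4%), in 0 of the 4 gained and in 0 of the 44 open in all 4. Over all genes the shares were 27.8%, 6.78% and 14.8%. The C/EBP motif TTNNGCAA was in 0 of 23, 1 of 4 and 3 of 44, beside 7.16%, 25.5% and 8.67%. The AGGTCA half-site of nuclear receptors was in 2 of 23, 1 of 4 and 2 of 44, beside 13.0%, 20.4% and 11.1%. The letters AGGGGGC, part of the CTCF motif, were in 3 of 23, 0 of 4 and 9 of 44, beside 7.05%, 1.80% and 10.2%. A pair of examples follows with the summit at the centre, on the plus strand: the lost site upstream of Mrpl45 with its AP-1 match in capitals, at chr11:97170360-97170480, and the gained site of Mrps6 with its half-site in capitals, at chr16:92102417-92102537.
Mrpl45 upstream site: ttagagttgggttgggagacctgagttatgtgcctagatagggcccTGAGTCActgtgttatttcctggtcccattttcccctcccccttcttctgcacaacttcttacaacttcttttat
Mrps6 intron site: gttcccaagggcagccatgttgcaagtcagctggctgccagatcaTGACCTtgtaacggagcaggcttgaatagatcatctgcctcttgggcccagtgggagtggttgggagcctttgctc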

How the data were processed

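ATAC-seq peak lists of 4 libraries were used, 1 per group, grouped by the genotype and day in the sample labels. The authors' processing comprised trimming, alignment to mm9, duplicate removal and peak calling on each library; the processing notes name Bowtie2, SAMtools, Picard and deepTools, and versions, the calling threshold and any Tn5 offset are not given in the sources used here. The values the authors deposited for each peak are the fold enrichment, a ratio of summit pileup to local background, the −log10 p and −log10 q of the summit, and a score that rescales q and was not used. The number of reads is unknown, so depth is known only as a relative background rate. Replicates were absent.

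Pileup and background were solved for each peak from fold and −log10 p (a pseudocount of 1, Poisson tail), which worked for 100% of peaks. Genes, starts and sequence came from the NCBIM37 (mm9) reference with its GENCODE annotation; coordinates are 1-based. Peaks of different lists sharing 1 bp were 1 site. The exact binomial 95% intervals cover counting error only; intervals of medians are order-statistic intervals over genes, which are not replicates. The members, gene lists and motifs were chosen with earlier results of these data known. Named genes were those missing a promoter summit, the 6 strongest and 6 weakest, the 6 (day) or 4 (genotype) with the largest same-sign ratio in each direction, the genes with most sites, the strongest gained or lost sites (except a single lost site that is not reported here) and a few of known role; Mrps23, Mrps5, Mrps6, Mrps10 and Mrpl14 were added after their values were seen. The calculations were tested on simulated data and ran under Python 3.11.15 with SciPy 1.17.1 and pandas 2.3.3. Alternatives covered the window, starts, list length, q threshold, scaling, fold and matching of peaks.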

Additional observations from a re-analysis of the deposited data

Results flagged for a closer look

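Effects that pointed in opposite directions in 2 comparisons are listed here; with 1 library per group none of these differences was tested. The centred median log2 ratio of D8 over D0 was -0.002 in WT and 0.025 in HY, and that of HY over WT was -0.014 on D0 and 0.042 on D8, all close to 0. Mrpl45 had a D8 over D0 ratio of 0.68 in WT and -0.08 in HY. Mrps23 had an HY over WT ratio of -0.02 on D0 and 0.60 on D8. For Mrpl45 and Mrps23 the counting intervals of all 4 values included 0.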

How the results depend on the processing

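Of 144 values recomputed under 15 settings, 105 stayed within 1.5 times the count, or within the interval, of the reported value. No paired analysis was possible because each group is 1 library. The numbers of members open per library kept within 1.5 times under every setting tried, a bound that no rise could pass with 77 members. They were 65, 64, 62 and 66 with peaks placed by their centre. In each library they were 76 with a window of -2000 to +1000 bp or when any part of the peak counted. The counts of gained plus lost promoter summits (4, 1, 3 and 4 for the day in WT, the day in HY, the genotype on D0 and on D8) are small and depend on where the summit falls. They were 0, 0, 0 and 0 with a window of -2000 to +1000 bp and also when any part of the peak counted, 9, 8, 5 and 8 with peaks placed by their centre, 2 for the day in HY and 5 for the genotype on D0 both with protein-coding transcript starts and with lists of equal length, and 3 for the day in HY at a −log10 q of at least 5. Members past the fold (5, 7, 0 and 2) were 2, 2, 2 and 1 with fold enrichment, 3, 4 and 1 (all but the genotype on D0) with a pileup of at least 30, and 0, 0 and 0 for the same at 2-fold; the genotype counts were 1 and 1 with protein-coding starts, 1 on D8 with the stricter q, and 1 on D0 with peak centres or with the same site in both libraries. Scaling by the background rate moved the genotype medians to 0.08 and 0.20, where all promoters moved by 0.09 and 0.15. Sites gained and lost on D8 in both genotypes (4 and 23) were 8 and 4 with equal lists and 1 and 9 within 5 kb, and 2 were gained with protein-coding starts. The share of promoters with the NRF1 motif was 6.85% around the summit, beside 11.0% around the start. Depth limits single genes, since the interval of each of the 275 ratios of strongest promoter summits reached 0.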
